A study of Homo sapiens with 8 samples.

Results

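Nonhomologous end joining genes were followed by their levels in the deposited expression table. The group held 10 genes, XRCC5, XRCC6, PRKDC, DCLRE1C, XRCC4, LIG4, NHEJ1, PAXX, TP53BP1 and RIF1, of 17649 genes in all. They were taken by symbol, as known genes of the pathway, and each of the 10 had a row in the table.

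RNA was sequenced from MDA-MB-231 cells, an ER negative human breast cancer cell line, in 4 control libraries and 4 libraries of cells given carboxymethyllysine (CML), an advanced glycation end product. The CML cells received 1 μM CML for 48 hours, the control cells received PBS, and both were kept in low glucose medium. All 8 libraries came from this 1 line in culture. With this comparison the paper examined whether CML brings about a proinflammatory signature of RAGE, the receptor of such end products. It studied DNA repair in relation to diabetes and high glucose. There it reported, from a reporter assay, reduced nonhomologous end joining in this line under high glucose. The RNA levels after CML given here are a different measure under a different treatment.

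Nonhomologous end joining rejoins the ends of a DNA double-strand break without a template. The Ku heterodimer binds the ends and recruits the kinase DNA-PKcs, the nuclease Artemis trims ends that cannot be joined directly, and ligase IV with XRCC4 seals them, aided by XLF and PAXX. 53BP1 and RIF1 hold back the resection that would commit the break to homologous recombination. The pathway works throughout interphase and is the main route of double-strand break repair in cultured human cells.

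Levels were given in CPM, the reads of a gene as a share of the reads of its library, scaled by the authors for differences in library composition. Each library held between 16161799 and 18954719 estimated reads. All 10 genes averaged 1 CPM or more. The line's own markers VIM (4014 to 4243 CPM), CD44 (803 to 885 CPM) and AXL (1122 to 1263 CPM) were high in each library, ESR1 had no row, and PGR lay between 0 and 0.114 CPM and CDH1 between 0.311 and 0.954 CPM. Of the other luminal or epithelial markers listed as low in this line, GATA3 (3.47 to 5.61 CPM) and EPCAM (12.7 to 16.3 CPM) were detected and KRT18 was high (310 to 355 CPM). Among the leukocyte markers 2 of 4 had a row, and their summed level was 159 to 181 CPM in control and 152 to 173 CPM in CML libraries. Nearly all of that was CD68 (152 to 181 CPM), a lysosomal protein, while the defining marker PTPRC stayed between 0.116 and 0.650 CPM. Fibroblast markers summed to between 14.4 and 16.1 CPM in control and between 14.9 and 18.8 CPM in CML libraries. Most of that was COL1A1 (9.40 to 13.3 CPM) and PDGFRB (3.07 to 4.88 CPM). LUM held 0.605 to 1.71 CPM and DCN 0.0605 CPM or less. Of the endothelial markers, PECAM1 held 2.36 to 3.84 CPM and VWF 0.118 to 0.747 CPM, and CDH5 had no row. Because CPM is a share of a bulk library, a change in the RNA of each cell and a change in the share of cells that express a gene cannot be told apart.

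None of the 10 genes passed the test for a difference between CML and control. By limma, with p-values adjusted over the whole table (Benjamini-Hochberg) and the false discovery rate of 0.3 used for this experiment, 0 of 10 were called, where 0.895% of all 17649 genes were called and 0.674% were called as higher with CML. Without adjustment, 2 of the 10, PRKDC and XRCC6, had a p under 0.05, beside 7.66% of all genes. No gene of the table passed at a false discovery rate of 0.05. The fitted log2 fold change was above 0 for 7 of the 10 genes and below 0 for 3 (XRCC4, NHEJ1 and PAXX), where 58.8% of the genes of at least 1 CPM were above 0. The median log2 fold change of the 10 was 0.058, beside 0.015 over genes of at least 1 CPM and 0.0066 over all genes. In none of the 10 did the CML and control libraries separate without overlap, whereas all CML libraries lay above all controls in 2.5% of genes.

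**Figure D1:**
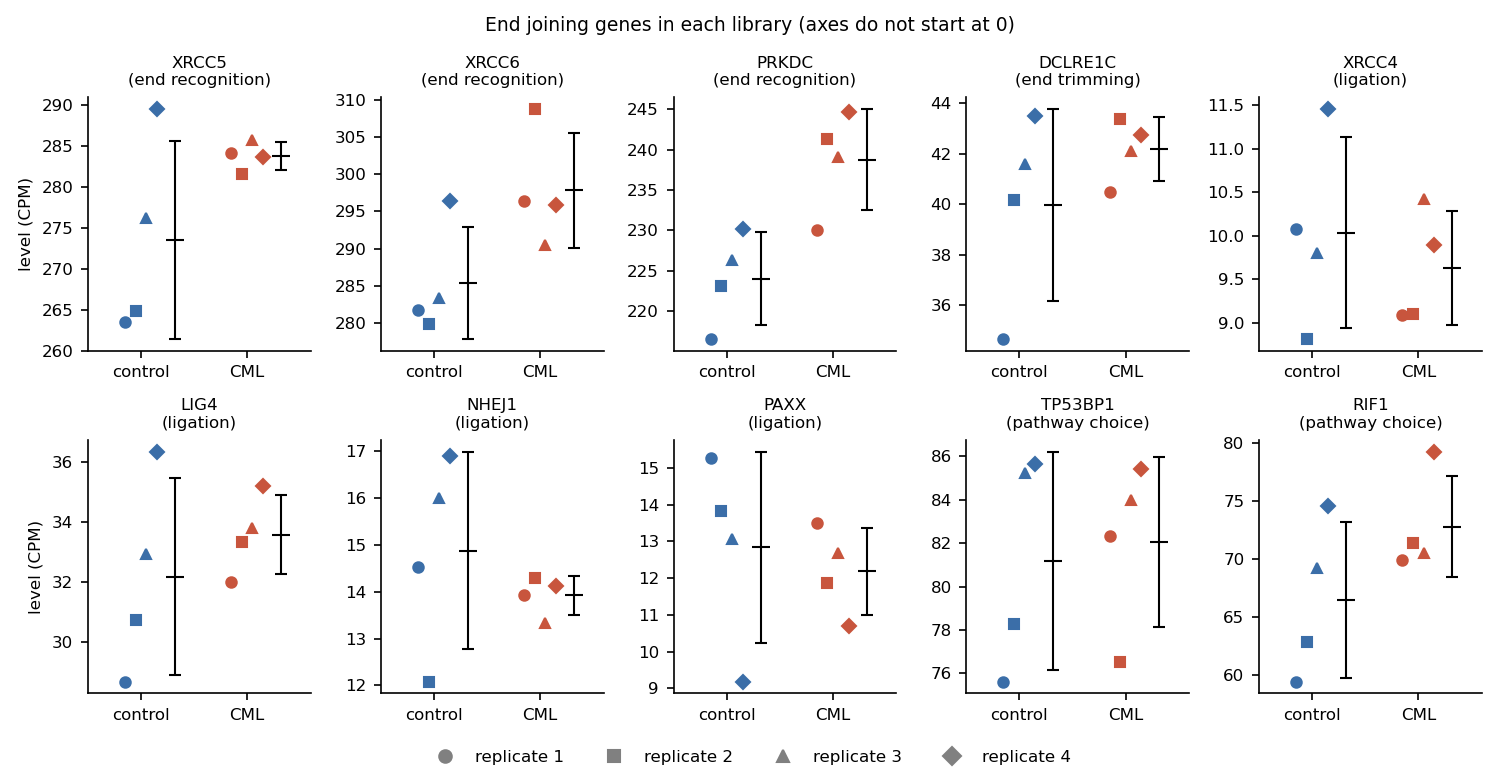
Level of each end joining gene in CPM (vertical axes, each on its own scale that does not start at 0) in the 4 control (blue) and 4 CML (red) libraries, with a symbol for each replicate number and the mean ± SD in black beside each group. The control and CML points overlap in every panel; for PRKDC, 3 of 4 CML libraries lie above the highest control, and control replicate 4 is the highest control in 9 of 10 panels.

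The genes of end recognition were the most abundant. XRCC5 (ENSG00000079246.16), which encodes Ku80, lies on chromosome 2 at 216109348 to 216206293 of GRCh38.p14. It had 263, 265, 276 and 290 CPM in control replicates 1 to 4, and 284, 282, 286 and 284 CPM in CML replicates 1 to 4. All 4 CML libraries were above the control median but below control replicate 4, so that the groups overlapped. The log2 fold change was 0.05 ± 0.03 (SE, n = 4 per group, 95% interval -0.02 to 0.13), with a limma adjusted p of 0.777. The CML libraries lay close together, with an SD of 1.72 CPM around 284, against an SD of 12.1 CPM around 273 in the controls. The CML coefficient of variation, 0.607%, was below the 1.45% that counting alone gives.

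XRCC6 (ENSG00000196419.12) encodes Ku70, the partner of Ku80, and lies on chromosome 22 at 41621295 to 41664041. Its control libraries held 282, 280, 283 and 296 CPM and its CML libraries 296, 309, 290 and 296 CPM. Each CML library exceeded the first 3 controls, and control replicate 4 lay among the CML values. With CML its log2 fold change was 0.06 ± 0.03 (SE, n = 4 per group, 95% interval 0.00 to 0.12), with a limma adjusted p of 0.641.

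PRKDC (ENSG00000253729.7) on chromosome 8 encodes DNA-PKcs, the kinase that Ku brings to the break. It showed the smallest p of the 10 genes. The controls held 217, 223, 226 and 230 CPM and the CML libraries 230, 241, 239 and 245 CPM. In 3 CML libraries the level was above every control, and only CML replicate 1, at 229.999 CPM, lay just under control replicate 4, at 230.125 CPM. The mean was 6.59% higher with CML (239 ± 6.28 against 224 ± 5.77 CPM, SD, n = 4), which is 0.09 ± 0.03 on the log2 scale (SE, 95% interval 0.03 to 0.15). The unadjusted limma p was 0.00926 and the adjusted p 0.422, which did not pass. Without control replicate 4 the adjusted p was 0.272, and XRCC5 (0.245) and XRCC6 (0.292) then passed too. In that fit 3.91% of all genes were called, so calls were more frequent over the whole table.

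The gene of end trimming, DCLRE1C (ENSG00000152457.18, chromosome 10, 14897359 to 14954432), encodes Artemis, the nuclease that DNA-PKcs activates. Control libraries held 34.6, 40.1, 41.6 and 43.5 CPM, and CML libraries 40.5, 43.4, 42.1 and 42.7 CPM. Control replicate 1 was low and the other 7 libraries fell within a narrow band. The log2 fold change was 0.08 ± 0.07 (SE, n = 4 per group, 95% interval -0.08 to 0.24, limma adjusted p = 0.897). Without control replicate 1 it was 0.0149. SUV39H2, on the opposite strand, overlaps DCLRE1C and had a mean of 16.3 CPM. The strand setting of the counting was not given in the sources used here, so reads of overlapping genes cannot be assigned with certainty.

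The ligation genes were of low to intermediate abundance. Of these, XRCC4 and LIG4 encode obligate partners, and each gene starts head to head with a neighbour on the other strand. XRCC4 (ENSG00000152422.15) lies on chromosome 5 at 83077547 to 83374473 and starts 153 bases from TMEM167A. The mean of TMEM167A was 99.3 CPM, far above XRCC4 itself. By these starts TMEM167A and XRCC4 run apart without sharing bases. Their annotated spans were nonetheless recorded as overlapping on opposite strands, so the overlap depends on the annotation. LIG4 (ENSG00000174405.13) lies on chromosome 13 at 108207442 to 108218349 and starts 43 bases from ABHD13. Their RefSeq promoters (GRCh38.p14, 250 bases before to 50 bases after the start, read on the gene's strand) are shown because they hold both starts of a pair. Capitals mark the stretch from the neighbour's start to the gene's own start, 154 bases for XRCC4 (chr5:83077297-83077596, plus strand) and 44 bases for LIG4 (chr13:108218300-108218599, minus strand).
XRCC4: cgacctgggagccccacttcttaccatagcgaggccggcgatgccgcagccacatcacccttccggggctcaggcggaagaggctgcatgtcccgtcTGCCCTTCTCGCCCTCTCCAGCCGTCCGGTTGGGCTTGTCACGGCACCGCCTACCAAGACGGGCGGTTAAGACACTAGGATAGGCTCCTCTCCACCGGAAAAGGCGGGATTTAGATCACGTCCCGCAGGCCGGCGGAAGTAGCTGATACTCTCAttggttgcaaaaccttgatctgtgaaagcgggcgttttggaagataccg
LIG4: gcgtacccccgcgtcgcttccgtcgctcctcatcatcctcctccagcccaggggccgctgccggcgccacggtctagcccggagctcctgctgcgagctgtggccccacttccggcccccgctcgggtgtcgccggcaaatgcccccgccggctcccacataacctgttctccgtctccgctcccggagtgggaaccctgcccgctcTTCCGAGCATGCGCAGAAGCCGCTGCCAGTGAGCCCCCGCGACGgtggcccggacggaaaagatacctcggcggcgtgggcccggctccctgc

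The stretch in capitals was 61.0% G and C for XRCC4 and 70.5% for LIG4. RefSeq promoters were matched for 8 of the 10 genes, all but XRCC5 and PRKDC. The letters GCATGCGC, the core of the NRF1 motif, stand in the capitals of LIG4. Searched on both strands, they occurred in 3.27% of 27305 promoters of this length and, of the 8, in LIG4 and XRCC6. CCGGAAGT, an ETS core, occurred in 4.44% of all promoters and in LIG4 and PAXX. GGGCGG, the SP1 core, occurred in 44.6% of all promoters and in 7 of the 8, with LIG4 the exception. CCAAT occurred in 35.7% of all promoters and in 5 of the 8 (DCLRE1C, RIF1, TP53BP1, XRCC4 and XRCC6), while TATAAA (12.0%) occurred only in DCLRE1C and the E2F letters TTTCGCGC (0.546%) in none. These are matches of letters, not shown sites. The promoter of PAXX had the highest GC content of the 8, 75.7%, and that of DCLRE1C the lowest, 47.0%, against a median of 58.3% over all promoters.

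XRCC4 itself, the scaffold of the ligase, held 10.1, 8.81, 9.80 and 11.5 CPM in control and 9.09, 9.10, 10.4 and 9.89 CPM in CML libraries. The CML values all fell within the control range. With CML its log2 fold change was -0.05 ± 0.08 (SE, n = 4 per group, 95% interval -0.25 to 0.15, limma adjusted p = 0.977). With between 149 and 201 estimated reads per library, counting alone gives a coefficient of variation of 7.73%. With the strand setting not given, reads of TMEM167A in any span annotated to both genes could not be told from those of XRCC4. LIG4, the ligase that seals the break, held 28.7, 30.7, 33.0 and 36.4 CPM in control and 32.0, 33.3, 33.8 and 35.2 CPM in CML libraries. Again the CML values sat inside the control range, and the log2 fold change was 0.06 ± 0.07 (SE, n = 4 per group, 95% interval -0.11 to 0.23, limma adjusted p = 0.927).

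NHEJ1 (ENSG00000187736.12, chromosome 2, 219069357 to 219160815) encodes XLF, which bridges the ends with XRCC4. Control libraries held 14.5, 12.1, 16.0 and 16.9 CPM and CML libraries 13.9, 14.3, 13.3 and 14.1 CPM. All 4 CML values were under the control median, and control replicate 2 lay under them all. The log2 fold change was -0.08 ± 0.10 (SE, n = 4 per group, 95% interval -0.31 to 0.15, limma adjusted p = 0.940). Its estimated reads were whole numbers (within 0.05) in only 1 of 8 libraries, whereas those of the other 9 genes were whole in all 8, so its level rests on estimated and not on whole counts. ENSG00000280537, at a mean of 0.980 CPM, overlaps it on the same strand.

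PAXX (ENSG00000148362.11, chromosome 9, 136992422 to 136993976), a paralog of XRCC4 that stabilises Ku on the ends, had the widest spread. Its controls held 15.3, 13.8, 13.1 and 9.18 CPM and its CML libraries 13.5, 11.9, 12.7 and 10.7 CPM. It was the 1 gene of the 10 for which control replicate 4 was the lowest control. With CML its log2 fold change was -0.05 ± 0.15 (SE, n = 4 per group, 95% interval -0.41 to 0.31, limma adjusted p = 1). This interval, the widest of the 10, leaves changes from 0.752-fold to 1.24-fold possible.

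Both genes of pathway choice were expressed at intermediate levels. TP53BP1 (ENSG00000067369.13, chromosome 15, 43403061 to 43510640) encodes 53BP1, which binds chromatin beside the break. It held 75.6, 78.3, 85.2 and 85.7 CPM in control and 82.3, 76.5, 84.0 and 85.4 CPM in CML libraries. The groups covered the same range, with a log2 fold change of 0.02 ± 0.05 (SE, n = 4 per group, 95% interval -0.11 to 0.14, limma adjusted p = 1). Its overlapping opposite-strand neighbour TUBGCP4 had a mean of 21.6 CPM.

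RIF1 (ENSG00000080345.17, chromosome 2, 151409902 to 151534435) encodes an effector of 53BP1 and had the highest fold change of the 10. Control libraries held 59.4, 62.8, 69.2 and 74.5 CPM, and CML libraries 69.9, 71.4, 70.5 and 79.3 CPM. Each CML library exceeded controls 1 to 3, but only CML replicate 4 exceeded control replicate 4. The log2 fold change was 0.13 ± 0.08 (SE, n = 4 per group, 95% interval -0.05 to 0.31, limma adjusted p = 0.794).

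**Figure D2:**
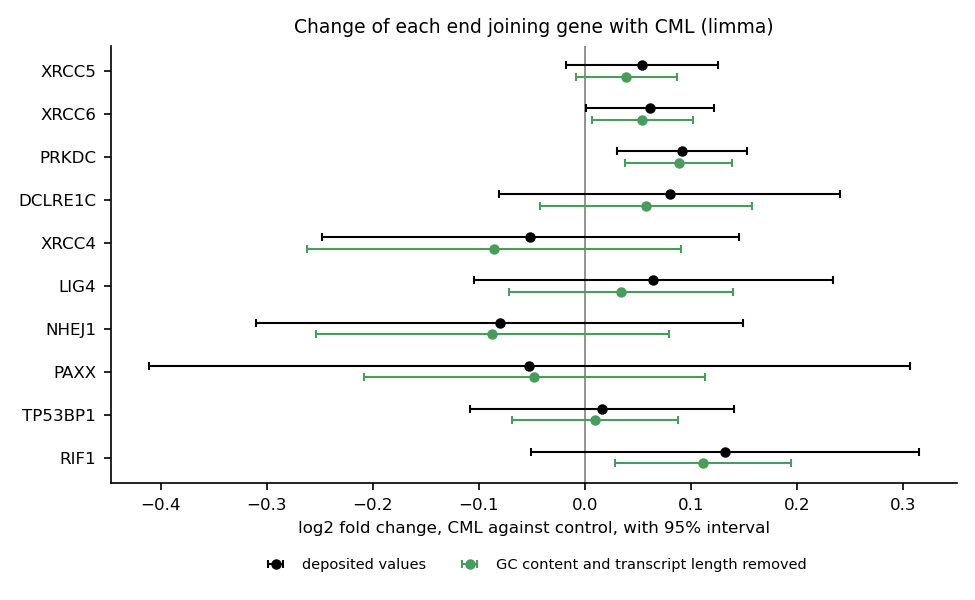
Fitted log2 fold change of each end joining gene, CML against control (horizontal axis), with its 95% interval, from the deposited values (black) and after each library was corrected for transcript GC content and length (green). With the deposited values 8 of 10 intervals hold 0, the exceptions being PRKDC and XRCC6; PAXX has the widest interval (-0.41 to 0.31), which is much narrower in green (-0.21 to 0.11).

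Levels between genes were compared per kilobase of the canonical transcript, since long transcripts yield more reads. In the controls the mean level was 134 CPM per kilobase for XRCC6 and 80.9 for XRCC5, then 16.6 for PRKDC and 15.9 for PAXX. LIG4 (8.08), TP53BP1 (7.83), DCLRE1C (6.71) and XRCC4 (6.26 CPM per kilobase) followed close together, and RIF1 (4.53) and NHEJ1 (1.86 CPM per kilobase) were lowest. The order thus placed the Ku genes far above the ligation genes. PRKDC and PAXX differed by less than the spread of PAXX between controls. These levels depend on the transcript whose length is used.

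For most of the genes the control libraries lay further apart than the CML libraries. The control range exceeded the CML range in 8 of the 10 genes, where 61.7% of the genes of at least 1 CPM did so. The coefficient of variation of XRCC5, for example, was 4.42% in control and 0.607% in CML libraries, and that of LIG4 10.2% and 3.94%. Counting alone gives 1.45% for XRCC5 and 4.23% for LIG4, so both CML spreads lay below the counting error. The CML spread was below it in 5 of the 10 genes and the control spread in 0. For these counts the share over all genes was not determined, so they are not read as a trait of the group.

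Control replicate 4 was the highest control for 9 of the 10 genes, and it was so for 39.2% of the genes of at least 1 CPM. Control replicate 1 was the lowest control for 6 of the 10, a count for which the share over all genes was not determined. These were also the libraries at the ends of a dependence on the GC content of transcripts. Per 10 percentage points of GC, the log2 level changed by 0.073 in control replicate 1, 0.024 in control replicate 2, 0.0095 in control replicate 3 and -0.089 in control replicate 4. In CML replicates 1 to 4 it changed by 0.016, 0.013, 0.024 and -0.071. Replicate 4 of both groups therefore stood apart in the same direction.

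The transcripts of the 10 genes ranged from 35.2% GC in LIG4 to 66.0% in PAXX, and the other 8 lay between 35.7% (XRCC4) and 48.4% (XRCC6). LIG4 and RIF1 (36.6% GC) were lowest of their controls in replicate 1 and highest in replicate 4. The same held for DCLRE1C (40.6% GC), XRCC5 (42.5%), PRKDC (45.1%) and TP53BP1 (45.7%), so this order was not limited to the lowest GC contents. NHEJ1 (47.0%) and XRCC6 were lowest in replicate 2. PAXX ran the other way on the log2 scale. It was 0.28 above its mean over all libraries in control replicate 1 and 0.40 below it in control replicate 4. XRCC4, at 35.7% GC, did not follow LIG4 and RIF1 at the low end, since its lowest control was replicate 2 and replicate 1 lay 0.04 above its mean. The part of this dependence in the results was not tested beyond removing it.

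**Figure D3:**
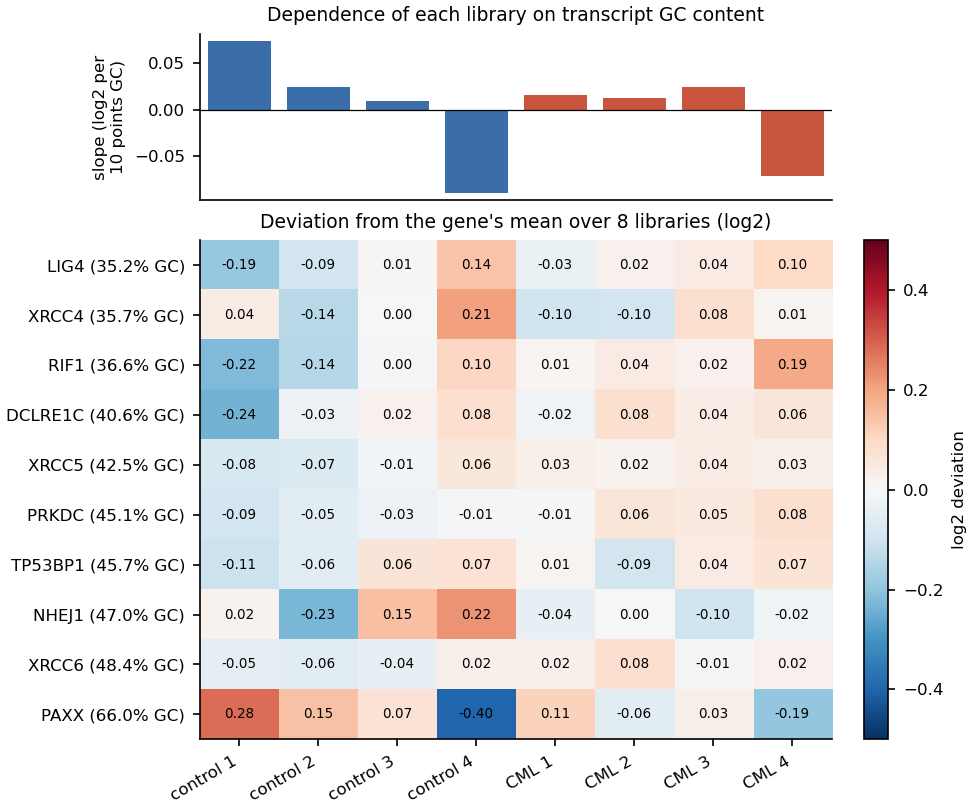
Top, the slope of each library's log2 level on transcript GC content, per 10 percentage points, for control (blue) and CML (red) libraries. Bottom, the log2 deviation of each end joining gene (rows, ordered by the GC content of the transcript) from its own mean over the 8 libraries (columns); PAXX, at 66.0% GC, deviates by 0.28 in control 1 and by -0.40 in control 4, opposite in sign to LIG4 (-0.19 and 0.14).

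Once GC content and transcript length had been accounted for, the SD between replicates became smaller for all 10 genes, in PAXX from 0.228 to 0.0935 on the log2 scale. The correction subtracts fitted spread between libraries, so SDs tend to fall over the table. The share of all genes with a smaller SD was not determined. PRKDC and RIF1 then passed, 2 of 10, where 6.73% of 12978 genes were called. The log2 fold change of PRKDC was 0.09 ± 0.02 (SE, n = 4 per group, 95% interval 0.04 to 0.14, limma adjusted p = 0.0860) and that of RIF1 0.11 ± 0.04 (SE, 95% interval 0.03 to 0.19, limma adjusted p = 0.226). XRCC6 (0.05, limma adjusted p = 0.341) and XRCC5 (0.04, limma adjusted p = 0.548) did not pass. For RIF1 the SE had been 0.08 before the correction, and the fold change itself moved by less than that SE.

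Ratios of partner genes within a library were compared to set partners side by side in the same cells. Each is the log2 of 1 gene's CPM + 1 over the other's, so that the pseudocount of 1 pulls ratios of low genes such as XRCC4 toward 0. Of 9 ratios, 0 differed between CML and control at an adjusted p under 0.05, a stricter threshold than the 0.3 used for genes. The exact permutation test was 2-sided and adjusted over the 9, and the groups overlapped in each ratio. The lowest adjusted p of this test was 0.45, so none passed at 0.3 either. A single ratio could not reach an adjusted p below 0.257 in this design. The ratio of the Ku genes, XRCC5 to XRCC6, differed by -0.01 on the log2 scale (exact permutation p = 0.771, adjusted p = 0.964). PRKDC to XRCC5 differed by 0.04 (exact permutation p = 0.2, adjusted p = 0.45) and DCLRE1C to PRKDC by -0.01 (exact permutation p = 0.857, adjusted p = 0.964).

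For the ligase and its scaffold, the log2 ratio of LIG4 to XRCC4 (CPM + 1) was 1.42, 1.69, 1.65 and 1.58 in control and 1.71, 1.77, 1.61 and 1.73 in CML libraries. Only CML replicate 3 fell within the control range. The difference was 0.12, with an exact permutation p of 0.143 (adjusted p = 0.45). NHEJ1 to XRCC4 (-0.03) and PAXX to XRCC4 (-0.00098) differed by less than their spread between libraries.

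The lowest p among the ratios belonged to RIF1 and TP53BP1, effector and anchor of the same branch. Their log2 ratio was -0.34, -0.31, -0.30 and -0.20 in control and -0.23, -0.10, -0.25 and -0.11 in CML libraries, a difference of 0.12 (exact permutation p = 0.0857, adjusted p = 0.45). Against genes of the opposing resection branch, TP53BP1 to BRCA1 differed by -0.03 (exact permutation p = 0.429, adjusted p = 0.771) and RBBP8, which encodes the resection factor CtIP, to TP53BP1 by 0.08 (exact permutation p = 0.2, adjusted p = 0.45).

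Neighbours that start head to head with an end joining gene were looked up within 1000 bases. Beside TMEM167A and ABHD13 these were DESI1, 252 bases from XRCC6, and MAP1A, 314 bases from TP53BP1. None passed. TMEM167A had a log2 fold change of -0.01 ± 0.03 (SE, limma adjusted p = 0.995) beside -0.05 for XRCC4, and ABHD13 had 0.04 ± 0.05 (SE, limma adjusted p = 0.937) beside 0.06 for LIG4. DESI1 had 0.06 ± 0.06 (SE, limma adjusted p = 0.897), close to XRCC6. MAP1A had 0.20 ± 0.11 (SE, limma adjusted p = 0.766), but its mean was only 0.264 CPM in control and 0.453 CPM in CML libraries.

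Among other double-strand break repair genes none was called either. In 5 lists, 65 of 66 genes were measured (DNTT had no row) and 0 were called by limma at the false discovery rate of 0.3. Without adjustment 5 of the 65 had a p under 0.05, near the 7.66% over all genes. In all, 49 fold changes were above 0 and 16 below, beside 58.8% above 0 over genes of at least 1 CPM, and the median was 0.041. All CML libraries lay above all controls for 2 of the 65, APLF and POLQ, and below them for 1, L3MBTL1, where 2.5% of all genes separated upward and 1.27% downward.

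Among 13 genes of end processing, 11 were above 0 and the median log2 fold change was 0.041. APLF encodes a scaffold that joins Ku to XRCC4. It held 9.98, 10.8, 10.6 and 11.1 CPM in control and 12.0, 12.9, 11.6 and 13.1 CPM in CML libraries. These groups did not overlap, yet the log2 fold change of 0.20 ± 0.05 (SE, n = 4 per group) did not pass (limma adjusted p = 0.398). APTX, which removes adenylate left by failed ligation, had 0.09 ± 0.03 (SE, limma adjusted p = 0.531).

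Of the 13 genes listed for the 53BP1-shieldin pathway, 10 were above 0 with a median of 0.057. Their smallest p values belonged to POLA1 (0.16, limma adjusted p = 0.760), a subunit of polymerase alpha, and STN1 (0.08, limma adjusted p = 0.789), a subunit of the CST complex that brings in this polymerase. Of 14 damage signalling genes, 10 were above 0 with a median of 0.052. L3MBTL1, whose protein binds the histone methyl mark that 53BP1 reads, held 9.24, 9.87, 9.86 and 10.2 CPM in control and 7.64, 8.67, 7.13 and 8.15 CPM in CML libraries. Every CML value was below every control, with a log2 fold change of -0.28 ± 0.06 (SE, n = 4 per group, limma adjusted p = 0.323). KMT5A, which writes the first methyl group of that mark, had 0.09 ± 0.05 (SE, limma adjusted p = 0.772).

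Of 14 end resection genes, 10 were above 0 with a median of 0.050; RBBP8 (0.10, limma adjusted p = 0.746) and the helicase gene RECQL4 (0.16, limma adjusted p = 0.778) had the smallest p values. The 11 genes of alternative end joining, the route that anneals short matching stretches, had a median of 0.0074, with 8 above 0. POLQ, its polymerase theta, held 4.29, 3.84, 4.05 and 3.88 CPM in control and 4.98, 4.60, 4.88 and 5.97 CPM in CML libraries. All CML values were higher, and the log2 fold change was 0.28 ± 0.08 (SE, n = 4 per group, limma adjusted p = 0.422). PARP1, a break sensor that acts with it, had 92.4 ± 3.38 CPM in control and 98.9 ± 2.60 CPM in CML libraries (SD, n = 4). The difference was 0.10 ± 0.03 on the log2 scale (SE, limma adjusted p = 0.489).

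**Figure D4:**
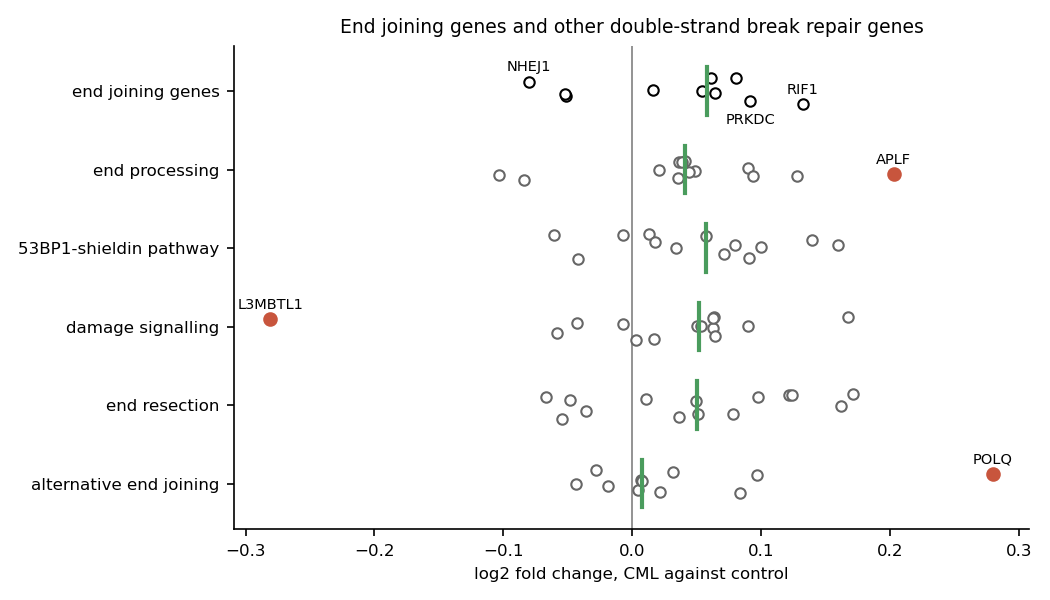
Fitted log2 fold change, CML against control (horizontal axis), of the end joining genes and of 5 lists of other double-strand break repair genes (rows), 1 point per gene, with the list's median as a green bar and genes whose libraries did not overlap filled in red. The medians lie between 0.0074 and 0.058, and the filled points are APLF, POLQ and L3MBTL1; vertical offsets within a row only separate the points.

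With the correction for GC content and length, 4 of the 65 other genes passed by limma, PARP1 as higher (0.09, adjusted p = 0.167) and L3MBTL1 (-0.28, adjusted p = 0.133), TDP2 (-0.11, adjusted p = 0.219) and RAD50 (-0.09, adjusted p = 0.225) as lower. TDP2, which clears topoisomerase remnants from ends, and RAD50, of the complex that senses and resects breaks, were named after their values were seen. Their share, like that of the end joining genes, is to be read beside the 6.73% of all genes called in the same fit.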

How the data were processed

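RNA-Seq values of 4 control and 4 CML libraries of MDA-MB-231 cells were analysed. The authors deposited CPM values, 1 column per library, and the submitters' processing notes name edgeR and hg38. The paper describes CPM with TMM scaling. The aligner, the counting tool, the annotation and the strand setting of this experiment were not given in the sources used here, and the labels name both an Illumina NextSeq and a HiSeq. Columns summed to between 986730 and 1014120. Dividing by the value of 1 read gave whole reads (within 0.05) for 86.2% to 87.2% of the values above 0, so no count test was run.

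Rows of a symbol were averaged (17681 rows, 32 symbols with more than 1 row, 17649 genes). The log2(CPM + 1) values were fitted by limma 3.58.1 (R 4.3.3), allowing a mean trend, and p-values were adjusted by Benjamini-Hochberg over the whole table, at a false discovery rate of 0.3 and at 0.05. Fold changes on this scale understate changes of low genes. For ratios within a library the exact permutation test was 2-sided and covered 70 labellings (smallest p 0.0286). Ratios were judged at an adjusted p of 0.05. GC content and length of the GENCODE 44 canonical transcript were removed from each library by a spline with 4 degrees of freedom over genes of at least 1 CPM. The scripts were tested on simulated data. Coordinates come from RefSeq (GRCh38.p14).

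The study gives 4 treated cultures; the p-values measure only the spread between these libraries. The labels do not say whether replicate numbers pair the samples, and the main fit was unpaired. Correlations of deviations ran from -0.0645 to 0.334 between same-numbered libraries and from -0.304 to 0.113 between differently numbered ones. The highest was 0.334, for replicate 4, followed by 0.199 for replicate 1. All 10 end joining genes are named. Of the other lists, genes called and the 2 genes with the smallest p are named, as are all head-to-head neighbours. Members and lists were chosen with earlier results of these data known. Alternatives were a pseudocount of 0.1, a filter at 1 CPM, other scalings, other limma settings, a replicate block, the removal of GC content and length, and leaving out each library. Leaving out both libraries numbered 4 was added after seeing the data.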

Additional observations from a re-analysis of the deposited data

Results flagged for a closer look

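Of 42 groups of 4 libraries examined for a library far from the others, 3 had one, where chance gives about 2.1. RIF1 was 79.3 CPM in CML replicate 4, against 69.9 to 71.4 CPM in the other CML libraries. Control replicate 4 held 17729512 estimated reads, against 16559911 to 16690402 in the other controls. The slope on transcript GC content was -0.0709 in CML replicate 4, against 0.0130 to 0.0238 in the other CML libraries (log2 level per 10 percentage points).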

How the results depend on the processing

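The median log2 fold change of the end joining genes, 0.0577 as reported, ran from 0.0237 (without control replicate 1) to 0.0824 (without replicate 4 of both groups) over 18 alternatives, and was 0.0297 with quantile normalization, 0.0381 with median centring and 0.0367 with GC content and length removed, beside an SD between replicates of 0.0538. No ratio passed at an adjusted p under 0.05 in any of the 12 alternatives run for them. That says nothing of stability. To pass at 0.05 in the main design, 6 of the 9 would have to reach the smallest p together, and pairs could not go below 0.125. Genes called over the whole table, 158 as reported, numbered 73 with libraries centred on their median, 874 with GC content and transcript length removed, 924 with that and a replicate block, 321 without replicate 4 of both groups, and 20 to 690 when single libraries were left out (20 without CML replicate 2, 690 without control replicate 4). Calls among the end joining genes, 0 as reported, were 1 with a replicate block (PRKDC, limma adjusted p = 0.252), 2 with GC content and length removed, with or without the block, and 0 to 3 without single libraries, the 3 without control replicate 4. The block called 189 genes in all, and whether same-numbered libraries share more than a number is not stated. Calls among the other repair genes, 0 as reported, were 1 without the limma trend, 4 with GC content and length removed, with or without the block, 1 without replicate 4 of both groups, and 0 to 3 without single libraries. The cause of these changes was not tested. Over the 18 alternatives, the adjusted p of PRKDC ran from 0.0860 to 0.679 and that of RIF1 from 0.144 to 0.916.

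Among the end joining genes, the fold changes of TP53BP1, PAXX and XRCC4 turned sign in some alternatives, and those of the other genes kept theirs. TP53BP1 was -0.0036 with median centring, -0.0009 with quantile normalization and -0.0171 to 0.0489 without single libraries. Without single libraries DCLRE1C ran from 0.0149 (without control replicate 1) to 0.1214 (without control replicate 4), LIG4 from 0.0126 to 0.1233 and RIF1 from 0.0805 to 0.1882 (the same libraries), NHEJ1 from -0.1704 (without control replicate 2) to -0.0192 (without control replicate 4), PAXX from -0.193 to 0.0326 and XRCC4 from -0.106 to 0.0086. The log2 PAXX/XRCC4 difference was 0.0011 with a pseudocount of 0.1, 0.0383 with GC content and length removed, and -0.2016 to 0.0946 without single libraries. The differences of XRCC5/XRCC6 (-0.0227 to 0.0137), NHEJ1/XRCC4 (-0.0652 to 0.0257) and DCLRE1C/PRKDC (-0.0605 to 0.0168) also turned without single libraries, the last being 0.0221 without replicate 4 of both groups. With 149 to 201 estimated reads per library for XRCC4, counting error (7.73%) limits what could be seen.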
